A study of Mus musculus with 10 samples.

Results

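Paired immunoglobulin-like receptors and CD300 receptors, a set of surface proteins of myeloid cells, were followed through the authors' deposited table of hematopoietic progenitor cells. The members are all rows whose symbol starts with Pira, Pirb, Pilr, Lilr or Cd300, which gave 17 of 12791 rows. They are Pira2, Pira6 and Pira11, Lilra5, Lilra6, Lilrb3 and Lilrb4, Pilra, Pilrb1 and Pilrb2, and Cd300a, Cd300c, Cd300lb, Cd300ld, Cd300lf, Cd300lg and Cd300lh. The set was chosen by the fold changes of Pira2, Pira11, Pilrb1 and Cd300lh in the first of its comparisons, so values of that comparison describe the members and support nothing by themselves.

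The cells were C57BL/6 mouse bone marrow progenitors isolated by flow cytometry with the gate Lin- c-Kit+ Sca-1-, and their RNA was measured in bulk. The labels name 10 libraries: 3 naive libraries from mice without a tumor, 4 libraries of KDR-negative cells and 3 libraries of KDR-positive cells, the last 2 groups from mice at week 4 of a GL261 tumor, a glioma line of mice. KDR is a receptor for vascular endothelial growth factor, and the tumor hosts were KDR-GFP knockin mice. About 20000 GFP-positive cells gave the RNA of each KDR-positive sample. Whether the naive mice carried the knockin is not stated. Separate mice are not named for the replicates, so p-values speak for these libraries only, whose spread may be technical. The authors' deposited table gives 2 comparisons without naming their groups and gives no value per library, so neither the depth nor the spread of a group is known and no value per sample can be shown. They are called the first and the second comparison. Positive fold changes mean a higher level in what is called here the numerator group, and the other side is the denominator group.

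Paired receptors come in sets of closely similar proteins that send opposite signals. Inhibitory members carry tyrosine motifs (ITIMs) in their cytoplasmic tail that recruit phosphatases such as SHP-1, while activating members have a short tail and signal through partner adaptors with activating motifs (ITAMs), chiefly DAP12 and the Fc receptor gamma chain. In mice, PIR-A proteins and the inhibitory PIR-B bind class I major histocompatibility molecules, PILR proteins bind sialylated glycoproteins, and several CD300 proteins bind lipids exposed on dying cells. Macrophages, granulocytes, monocytes, dendritic cells and mast cells carry many of them.

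The members lie in gene clusters that arose by duplication, and their promoters show how alike they are. Of the 17 members, 15 matched 1 gene each of the RefSeq table of GRCm38.p6. There Lilrb3 is Pirb, which encodes PIR-B, Lilrb4 is Lilrb4a, which encodes gp49B, and Cd300lh is Cd300ld3. Pira6 and Pira11 are named only. The name Cd300c is also an older name of Cd300c2, so which of the pair was counted is uncertain. A promoter of 300 bases, from 250 before to 50 after the annotated start, was on hand for 13 members. Those below are the 4 with the largest fold changes among members with a promoter, the inhibitory partner of Pira2, and Cd300lb, which moved the other way. They are written 5′ to 3′ on the strand of the gene, from RefSeq (GRCm38.p6), with AGGAAGT in capitals, a motif that holds the GGAA core recognised by ETS factors such as PU.1.
Pira2, chr7:3845002-3845301, minus strand: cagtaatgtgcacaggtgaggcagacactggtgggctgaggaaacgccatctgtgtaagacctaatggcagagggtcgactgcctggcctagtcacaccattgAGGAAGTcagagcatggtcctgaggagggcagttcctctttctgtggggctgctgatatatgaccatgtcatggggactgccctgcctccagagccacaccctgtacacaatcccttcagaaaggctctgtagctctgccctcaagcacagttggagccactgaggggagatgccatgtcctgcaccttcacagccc
Lilrb3 (RefSeq Pirb), chr7:3720333-3720632, minus strand: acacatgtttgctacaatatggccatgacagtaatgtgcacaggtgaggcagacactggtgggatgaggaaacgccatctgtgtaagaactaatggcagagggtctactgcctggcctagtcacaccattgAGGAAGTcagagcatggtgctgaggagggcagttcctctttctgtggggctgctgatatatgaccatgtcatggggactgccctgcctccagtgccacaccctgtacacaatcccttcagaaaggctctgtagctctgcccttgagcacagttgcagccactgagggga
Pilrb1, chr5:137858000-137858299, minus strand: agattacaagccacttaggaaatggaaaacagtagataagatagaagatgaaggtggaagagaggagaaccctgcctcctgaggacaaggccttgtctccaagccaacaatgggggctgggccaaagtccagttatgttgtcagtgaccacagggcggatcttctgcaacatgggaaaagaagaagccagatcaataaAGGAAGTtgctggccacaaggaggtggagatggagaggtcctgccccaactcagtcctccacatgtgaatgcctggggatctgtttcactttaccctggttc
Pilrb2, chr5:137871709-137872008, minus strand: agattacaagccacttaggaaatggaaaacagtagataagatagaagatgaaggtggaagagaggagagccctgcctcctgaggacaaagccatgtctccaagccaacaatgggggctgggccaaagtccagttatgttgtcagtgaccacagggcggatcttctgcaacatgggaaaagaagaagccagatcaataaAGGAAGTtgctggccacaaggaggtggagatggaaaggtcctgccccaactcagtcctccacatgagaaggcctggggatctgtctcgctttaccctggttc
Cd300lh (RefSeq Cd300ld3), chr11:115048281-115048580, minus strand: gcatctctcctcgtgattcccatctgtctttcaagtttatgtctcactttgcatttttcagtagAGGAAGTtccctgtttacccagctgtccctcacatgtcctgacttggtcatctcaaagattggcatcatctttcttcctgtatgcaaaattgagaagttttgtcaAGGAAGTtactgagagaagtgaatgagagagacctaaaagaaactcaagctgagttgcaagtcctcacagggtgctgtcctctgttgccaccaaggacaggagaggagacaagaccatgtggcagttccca
Cd300lb, chr11:114934322-114934621, minus strand: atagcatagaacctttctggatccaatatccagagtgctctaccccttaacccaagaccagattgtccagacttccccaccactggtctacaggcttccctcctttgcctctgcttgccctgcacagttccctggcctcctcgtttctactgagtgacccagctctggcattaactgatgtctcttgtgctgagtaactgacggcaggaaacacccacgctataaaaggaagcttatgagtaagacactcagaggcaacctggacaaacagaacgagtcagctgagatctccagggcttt
The Pilrb1 and Pilrb2 promoters were identical at 292 of 300 aligned bases. Those of Pira2 and Lilrb3 were identical at 264 of 272. Cd300lh and Cd300ld shared 225 of 257.

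AGGAAGT, or its reverse complement ACTTCCT, was found in 9 of the 13 members' promoters and in 9.35% of all 32851 promoters of 300 bases in the RefSeq table. The motif was chosen after the sequences and the values had been seen. All matches in members lay on the strand of the gene. The match began 147 bases before the start in Pira2, 119 before it in Lilrb3 and 52 before it in Pilrb1 and in Pilrb2, while Cd300lh held 2 matches, at 186 and 81 bases before it, and Cd300ld also held 2. Among the 11 members with a promoter that were higher in the first comparison, 9 held the motif, and Cd300a and Lilra5 did not. Cd300lb and Cd300c, which were not higher, did not hold it either. Copies share their promoters by descent, so these are not independent matches, and a match is a description of the letters and not of binding.

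In the first comparison the 2 sides differed widely for the activating members of the PIR and PILR sets. Because the table gives a mean and a fold change, the level of each side in CPM, as the authors' program scaled it, was derived from both. CPM is not divided by transcript length, so levels are compared within a gene only. The derived levels of the 2 denominator groups were compared over 9044 genes with a mean above 3 log2 CPM in both comparisons. Among the members only Cd300a and Cd300lb reach that mean in both. After the median difference was taken off, the levels matched with a median absolute deviation of 0.0020 (log2). The next pair of sides gave 0.051, so the 2 denominator groups are treated as 1 group. The 2 comparisons therefore share that group, and their values are set side by side without any overlap between them. Where a gene is near 0 in the shared group, the derivations differ, and both are given for members under 1 CPM there.

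Pira2 encodes an activating PIR-A receptor. Its derived level was 280 CPM in the numerator group of the first comparison, 3.29 CPM in the denominator group (3.09 CPM by the second comparison) and 1.47 CPM in the numerator group of the second. The authors' deposited table lists Pira2 with a log2 fold change of 6.41 for the first comparison, at an adjusted p of 2.0e-21, and of -1.07 for the second, at an adjusted p of 1. The derived level of Pira2 was thus highest in the first numerator group. That is a description only, since the set was chosen by Pira2 among others. The numerator groups were not tested against each other. Pira11, a further PIR-A gene, was derived at 102 CPM in the first numerator group, 0.969 CPM in the denominator group (0.772 CPM by the second comparison) and 0.586 CPM in the second numerator group. Its log2 fold changes there, in the authors' deposited table, were 6.71 (adjusted p = 3.5e-24) and -0.40, the latter with an adjusted p of 1.

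Pilrb1 encodes the activating PILR-beta, which pairs with DAP12. It was derived at 569 CPM in the first numerator group, 8.04 CPM in the denominator group (7.83 CPM by the second comparison) and 7.25 CPM in the second numerator group. The authors' deposited table lists Pilrb1 at 6.15, with an adjusted p of 2.2e-24, and at -0.11, with an adjusted p of 1. Cd300lh encodes an activating CD300 receptor. Its level was derived at 92.6 CPM in the first numerator group and at 0.0888 CPM in the second, while the denominator group came out at 0.329 CPM by the first comparison and 0.138 CPM by the second. The authors' deposited table lists Cd300lh at a log2 fold change of 8.14, rank 4 among all 12791 rows, with an adjusted p of 1.4e-13. In the second comparison it stood at -0.64 there, with an adjusted p of 1. With the denominator group so near 0, the size of this fold change depends on how the authors' fit treats low counts, and it is no bound.

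**Figure D1:**
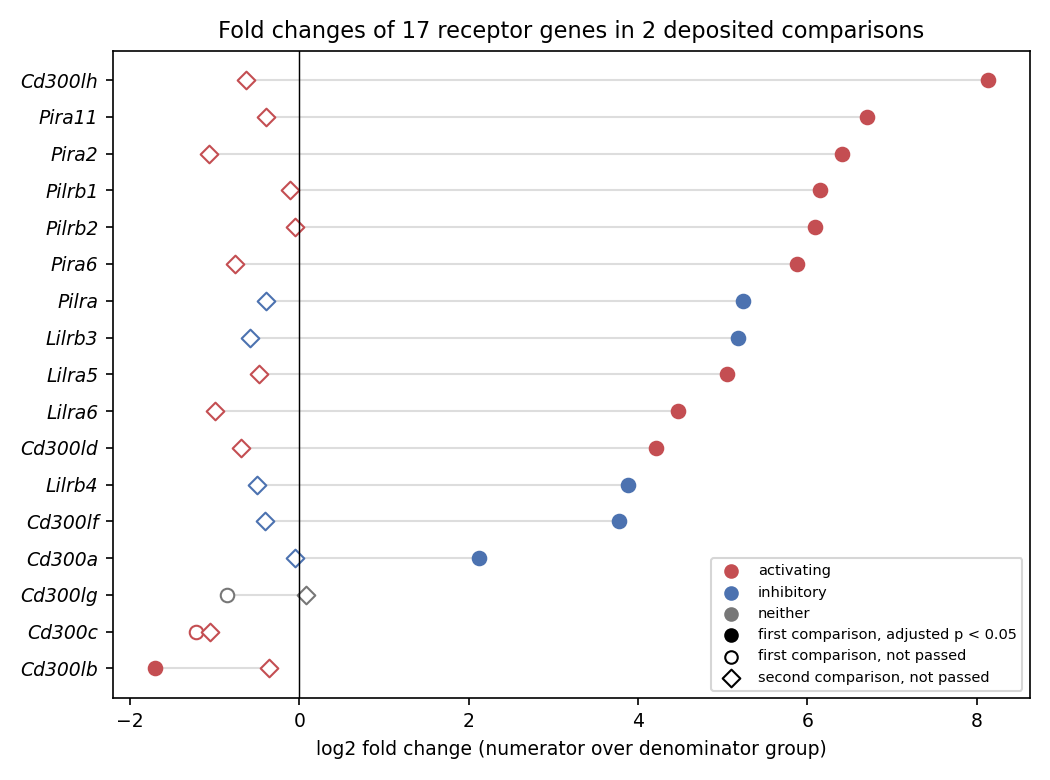
Log2 fold changes (x axis) of the 17 receptor genes (y axis) in the authors' deposited table, circles for the first and diamonds for the second comparison, filled where the adjusted p is under 0.05 and coloured by the sign of the receptor's signal. In the first comparison 14 genes lie between 2.13 and 8.14 and Cd300lb at -1.71, while in the second all 17 lie between -1.07 and 0.07.

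Counted over all members, 14 of 17 were higher in the first numerator group and 1, Cd300lb, was lower, at the authors' adjusted p under 0.05. Among all 12791 rows 22.3% passed, 18.8% higher and 3.49% lower. The unadjusted p was under 0.05 for the same count of 15 members and for 30.8% of all rows. Nothing is read from these counts, since the members came from this comparison. The members' median log2 fold change was 5.05, against -0.13 over all rows, and would be 3.56 if the summed levels of both groups were made equal. The members are lowly expressed outside the first numerator group, so rows with a mean under 4 log2 CPM in the second comparison are a nearer background. Of those 5309 rows 11.9% were higher in the first comparison, and their median was -0.45. In a bulk sample, fewer cells of a type and less RNA per cell cannot be told apart.

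The remaining activating members of the PIR, LILR and PILR sets were all higher. Pilrb2, the close copy of Pilrb1, was at 3.83 CPM in the denominator group by the second comparison and at 274 CPM in the first numerator group. The authors' deposited table lists it at a log2 fold change of 6.10, with an adjusted p of 8.3e-22. Pira6, a PIR-A gene, went from 0.673 CPM (0.478 CPM by the second comparison) to 39.6 CPM between the same groups, a fold change of 5.88 (log2) per the authors' deposited table. Lilra6, which RefSeq also lists as Pira3, went from 1.95 to 43.2 CPM, and the authors' deposited table lists 4.47. Lilra5, an activating receptor outside the tight PIR group, went from 0.248 to 8.24 CPM, and the authors' deposited table lists 5.05 with an adjusted p of 0.0017. The denominator group of Lilra5 came out at 0.0736 CPM by the second comparison, so the size of that change is uncertain too.

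All 5 inhibitory members were higher as well, with a median log2 fold change of 3.88, against 5.88 for the 11 activating members. Whether the 2 classes differ was not tested. Lilrb3, which encodes PIR-B, the inhibitory counterpart of the PIR-A receptors, went from 5.82 to 212 CPM between the denominator and the first numerator group, for which the authors' deposited table lists 5.18 with an adjusted p of 3.3e-20. Pilra, the inhibitory partner of PILR-beta, went from 3.13 to 119 CPM, at 5.25 in the authors' deposited table. Lilrb4, which encodes gp49B, went from 4.85 to 71.2 CPM, at 3.88 in the authors' deposited table. Among the inhibitory CD300 members, Cd300lf, a receptor for lipids and, in mice, for norovirus, went from 1.79 to 24.5 CPM, at 3.78 in the authors' deposited table, and Cd300a from 12.8 to 55.7 CPM, at 2.13 there with an adjusted p of 2.4e-06.

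The CD300 members went both ways. Of 7, Cd300lh, Cd300ld, Cd300lf and Cd300a were higher, Cd300lb was lower, and Cd300c and Cd300lg did not pass, with a median of 2.13. All 10 of the others were higher. Cd300ld, an activating receptor, went from 0.599 CPM (0.420 CPM by the second comparison) to 11.1 CPM, and the authors' deposited table lists 4.21 with an adjusted p of 0.0011. Cd300lb, an activating receptor that signals through DAP12 and is known from mast cells and other myeloid cells, was at 16.8 CPM in the denominator group, 13.2 CPM in the second numerator group and 5.14 CPM in the first. The authors' deposited table lists Cd300lb at -1.71 for the first comparison, with an adjusted p of 0.0107, and at -0.36 for the second, with an adjusted p of 1. Its call was lost at a threshold of 0.01 and under Benjamini-Yekutieli adjustment. Per the authors' deposited table, Cd300c stood at -1.22 with an adjusted p of 0.690, and Cd300lg, known from endothelium, at -0.85 with an adjusted p of 0.875.

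**Figure D2:**
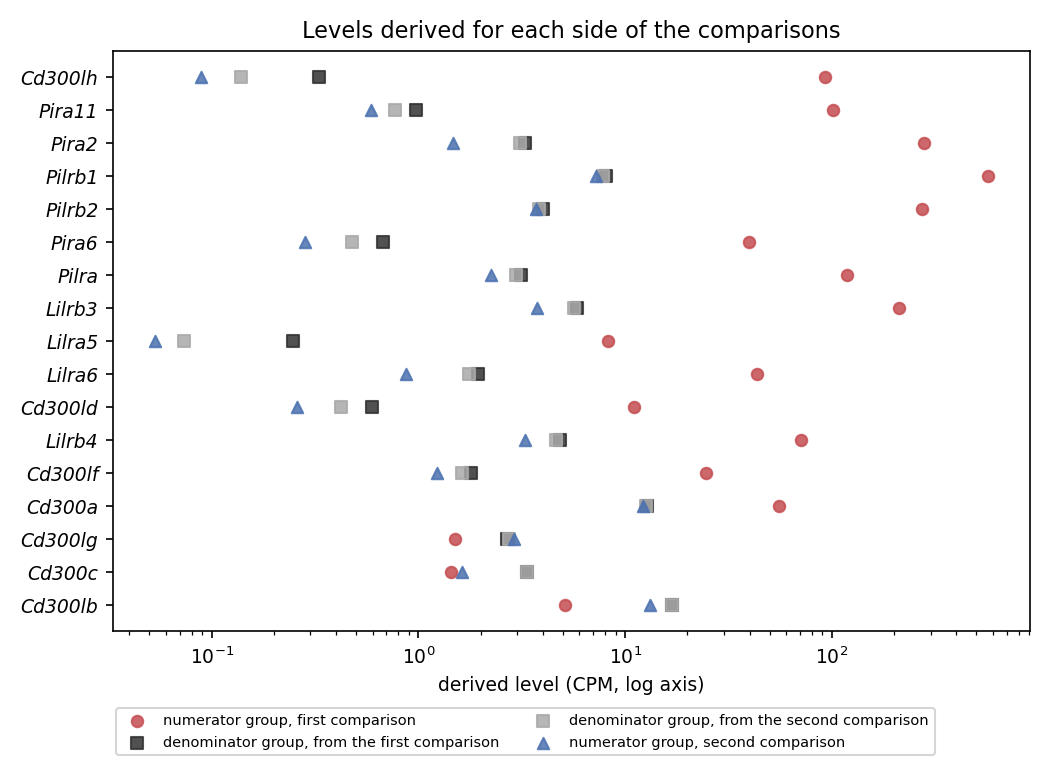
Levels derived from the authors' means and fold changes (x axis, CPM, log scale) for each of the 17 receptor genes (y axis), one mark per side of a comparison, with no error since the table has no value per library. The first numerator group lies to the right of the other groups for 14 genes and to the left for Cd300lb, Cd300c and Cd300lg.

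Means of the 15 members that passed in the first comparison ran from 2.03 log2 CPM for Lilra5 to 8.12 for Pilrb1. Pira2, Pira11, Pilrb1, Pilrb2 and Cd300lh ranked 13, 10, 20, 22 and 4 among the 12791 rows by fold change, while 2.71% of all rows had a log2 fold change of at least 3. Of the 12 members with at least 1 CPM in the denominator group by both comparisons, 9 were higher and 1 lower.

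**Figure D3:**
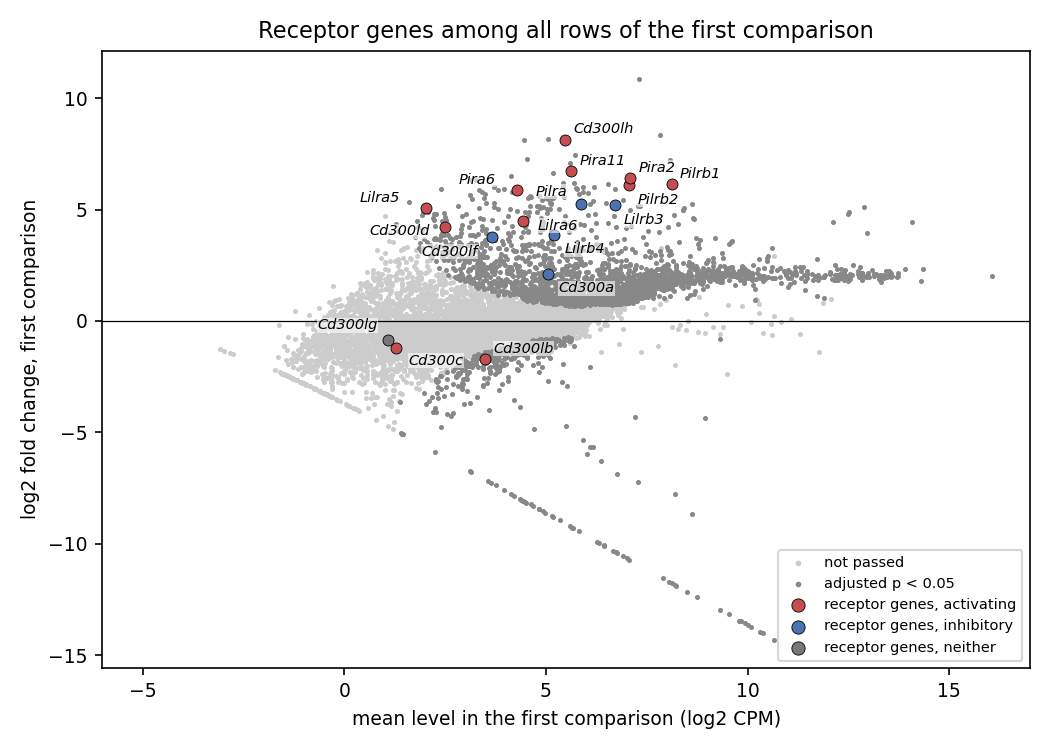
Log2 fold change (y axis) against the mean level (x axis, log2 CPM) of all rows of the first comparison in the authors' deposited table, with the 17 receptor genes as large points. Cd300lh at 8.14 and Pira11 at 6.71 lie near the top of the rows of their level, and Cd300lb at -1.71 lies among the lower rows.

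In the second comparison no member passed the authors' adjusted p of 0.05, and none had an unadjusted p under 0.05. As to the program behind these p-values, it was not given in the sources used here. Cd300lb had the smallest unadjusted p, 0.398. Over all rows 14 genes (0.109%) passed, and 0.336% had an unadjusted p under 0.05. The members' median log2 fold change was -0.48, against 0.0013 over all rows and -0.10 over rows with a mean under 4 log2 CPM. The fold change lay below 0 for 16 of 17 members, where 69.2% of the rows of that low level and 49.6% of all rows did. Cd300lg at 0.07 was the exception. The lowest values in the authors' deposited table were those of Pira2 at -1.07, Cd300c at -1.05 and Lilra6 at -0.998, none of which passed.

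Summed over the 17 members, the derived level was 1910 CPM in the first numerator group, 71.3 CPM in the denominator group and 54.9 CPM in the second numerator group. The sum over the PILR members was 962 CPM in the first numerator group and 15.2 CPM in the denominator group. For the PIR and LILR members it was 756 and 17.8 CPM, and for the CD300 members 192 and 38.4 CPM. These sums are not per length.

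Members that share sequence can share reads, and how reads matching several genes were counted was not given in the sources used here. For each matched member, the GENCODE M21 transcript with the longest coding sequence was divided into all its words of 36 bases, and each was looked up in the transcripts of all other genes that do not overlap the member. Pira2 shared 96.4% of its words, most with Gm15922, and Cd300lh shared 83.5%, most with Cd300ld5. The shares were 53.4% for Lilra6, 43.6% for Pilrb1, 43.2% for Lilrb3, 42.9% for Pilrb2, 36.1% for Lilrb4 and 12.9% for Pilra. With words of 75 bases the shares were 90.2% for Pira2, 81.5% for Cd300lh, 31.1% for Lilrb3, 22.6% for Lilra6, 19.7% for Lilrb4, 13.7% for Pilrb1, 11.3% for Pilrb2 and 2.40% for Pilra. Values of these genes are uncertain as to which copy the reads came from, most of all for Pira2 and Cd300lh. Pira6 and Pira11 matched no gene, so their sharing was not measured.

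Coding sequences show the same groups. Over ungapped columns, Pira2 was identical to Lilrb3 at 95.3% and to Lilra6 at 95.7% of bases, while gaps took up many of the other columns of the alignment with Lilrb3. Pilrb1 and Pilrb2 were identical at 93.5%, and Pilrb1 and Pilra at 87.7%, the latter over 668 of 919 columns. Lilra5, by contrast, was identical to Pira2 at 71.6%, and only 887 of 2044 columns were ungapped.

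**Figure D4:**
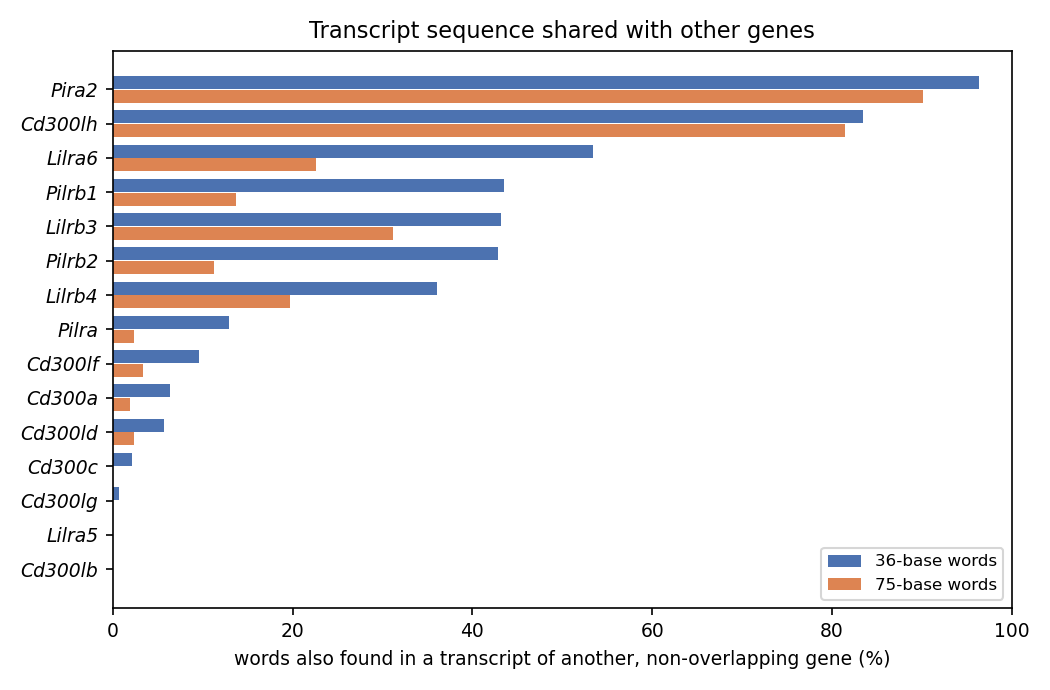
Share (x axis, %) of the 36-base and 75-base words of each member's longest coding transcript (y axis) that also occur in a transcript of another gene not overlapping it. Pira2 at 96.4% and Cd300lh at 83.5% share most of their words, while Lilra5 and Cd300lb share none.

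Under 10% of the 36-base words were shared for 7 members, Cd300a, Cd300c, Cd300lb, Cd300ld, Cd300lf, Cd300lg and Lilra5. Of these, 4 were higher in the first comparison and 1 was lower, and their median was 2.13. Of the PIR, LILR and PILR genes Lilra5 alone was among them. Pilra overlaps Zcwpw1 and Cd300lf overlaps Rab37 in the annotation, and without strand in the counting such reads could not be told apart. The authors' deposited table lists Zcwpw1 at -0.79, with an adjusted p of 0.522, and Rab37 at 0.56, with an adjusted p of 0.127.

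Further rows belong to the same sets under other names. For Gp49a, which RefSeq calls Lilr4b, the authors' deposited table lists 5.16 in the first comparison, at an adjusted p of 1.1e-21, and -0.90 in the second. For Gm11711, which RefSeq calls Cd300ld5 and which shares all of its 36-base words with other genes, the authors' deposited table lists 7.27, at an adjusted p of 6.5e-11, and -0.71. Pira1, Cd300c2, Cd300e, Cd300ld2 and Cd300ld4 were not analysed here.

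Protein-coding genes next to the members in the RefSeq order, and not members themselves, were examined next. Of 14 such neighbours 9 could be examined, and 3 were higher in the first comparison while none was lower. The higher ones were Gm14548, which is next to Pira2 and to Lilra6 and shares words with them, at 4.69 in the authors' deposited table, the ribosomal protein gene Rps9 at 2.10 and Cdc42ep5 at 2.95. Lair1, an inhibitory receptor gene next to Lilra6, stood at 0.47 with an adjusted p of 0.510, and Ncr1, a receptor gene of natural killer cells next to Lilra5, at -1.75 with an adjusted p of 0.342, per the authors' deposited table.

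Partners of the receptors were then examined, starting with the adaptors. Of 4 adaptor genes, 2 were higher in the first comparison and none was lower, with a median of 1.62. At equal summed levels, where every fold change of the first comparison is lower by 1.49 (log2), Tyrobp and Fcer1g would still lie above 0. Tyrobp, which encodes DAP12, went from 116 to 655 CPM, listed at 2.50 with an adjusted p of 1.5e-13 in the authors' deposited table, and Fcer1g, the Fc receptor gamma chain, from 92.5 to 521 CPM, at 2.49. Hcst, which encodes the adaptor DAP10, did not pass and stood at 0.75 with an adjusted p of 0.089, per the authors' deposited table.

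Kinases and other signalling genes downstream went both ways. Of 24, 9 were higher and 3 lower, with a median of 0.40. The Src-family kinase genes Fgr at 4.01, Lyn at 2.17 and Fyn at 1.18 were higher in the authors' deposited table, as was the scaffold gene Lcp2, which encodes SLP-76, at 1.33, though Fyn, Lcp2 and the median of the list would lie below 0 at equal summed levels. Lower were Lat2, which encodes the adaptor NTAL, at -1.21, the phospholipase gene Plcg1 at -1.27 and the exchange factor gene Vav3 at -1.05. Sh3bp2, at 0.85, did not pass, with an adjusted p of 0.079 in the authors' deposited table. Of the 4 phosphatase genes that ITIM receptors use, 2 were higher, Ptpn6, which encodes SHP-1, at 1.01 and Ptpn11, which encodes SHP-2, at 0.80 in the authors' deposited table, and both would lie below 0 at equal summed levels. Inppl1, at 1.32, did not pass, with an adjusted p of 0.110 per the authors' deposited table.

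Genes of known ligands were higher where they encode class I molecules, the ligands of PIR-A and PIR-B. Of 10 ligand genes 6 were higher and none lower, with a median of 1.71. Per the authors' deposited table, H2-D1 stood at 2.81 with an adjusted p of 1.5e-19, B2m at 2.73, H2-K1 at 2.63, H2-Q7 at 2.99, H2-T23 at 2.28 and Rtn4, which encodes the PIR-B ligand Nogo, at 1.13, of which Rtn4 alone would lie below 0 at equal summed levels. Angptl2, whose protein also binds PIR-B, stood at -3.75 in the authors' deposited table and did not pass, with an adjusted p of 0.114. None of the adaptor, kinase, phosphatase and ligand genes passed in the second comparison, where their list medians lay between -0.02 and 0.01.

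Other receptors of the same kind went both ways. Of 33 further paired receptors of myeloid cells 16 were higher and 3 lower, with a median of 0.90 that would lie below 0 at equal summed levels. Clec4a1 stood at 5.80, Siglec1, a macrophage lectin, at 5.56, Treml4 at 5.03, the platelet receptor gene Treml1 at 3.16, Clec4a2 at 2.85 and Sirpa at 2.46 in the authors' deposited table. Siglec5 at -1.60, Cd72 at -1.41 and Siglecg at -1.30 were lower there. Clec5a, at -1.38 in the authors' deposited table, did not pass, with an adjusted p of 0.059. Of 8 Fc receptor genes 6 were higher, among them Fcgr1 at 5.42, Fcgrt at 4.21, Fcgr4 at 3.47, Fcrl1 at 2.66, Fcgr3 at 2.08 and Fcgr2b at 1.32 in the authors' deposited table, of which Fcgr2b alone would lie below 0 at equal summed levels. Fcer1a, the alpha chain of the IgE receptor, was lower at -1.64. The authors' deposited table lists Fcrla at 0.10, with an adjusted p of 1.

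Markers of macrophages and of some other mature cells were higher in the same comparison as the members. All 19 macrophage markers examined were higher in the first comparison, with a median of 5.0 (log2). Their summed level was 6305 CPM in the first numerator group, 309 CPM in the denominator group and 172 CPM in the second numerator group. Vsig4, a complement receptor gene of tissue macrophages, was the lowest marker of the list in the denominator group. It was derived at 0.486 CPM there (0.254 CPM by the second comparison) and at 28.5 CPM in the first numerator group. A level derived in this way cannot come out at 0, so presence of a marker in the denominator group is not shown by it. In the second comparison C1qa at -2.41 and Fcna at -2.51 in the authors' deposited table were lower, and the list's median was -1.82. Markers of neutrophils were higher for 8 of 12 (1966 CPM summed in the first numerator group, 402 CPM in the denominator group). Those of eosinophils were higher for 6 with 1 lower of 12 (2473 and 496 CPM), and those of monocytes for 5 with 3 lower of 12 (3618 and 1365 CPM). The list medians of monocytes, 0.61, and eosinophils, 0.84, would lie below 0 at equal summed levels, but not that of neutrophils, 2.09. Below 0 there would also be the higher markers Ly6c2, Ly86, Prg2 and Csf3r. The part of these cells in the members' values was not tested.

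Of 9 mast cell and basophil markers none was higher and 3 were lower. These were Ms4a2 at -2.39, Cpa3 at -1.68 and Fcer1a at -1.64 in the authors' deposited table. Their list's summed level was 235 CPM in the first numerator group, 336 CPM in the denominator group and 330 CPM in the second numerator group. Other lists also held lower markers, the direction of Cd300lb, among them B cells (8 of 12), T and NK cells (4 of 10) and monocytes (3 of 12). The part of any of these cells in the value of Cd300lb was not tested. Megakaryocyte markers were higher for 10 of 10 (1748 and 206.5 CPM in the first comparison) and B cell markers for 1 of 12 with 8 lower (237 and 542 CPM). T and NK cell markers were higher for 2 of 10 with 4 lower (252 and 176 CPM). That list's median was -2.85 (log2), and most of its sum was Nkg7, at 202 and 110 CPM. For dendritic cells 2 of 11 were higher with 1 lower (348 and 170 CPM), and the list's median was -1.30 (log2). The largest part of that sum was Bst2, at 206 and 74.1 CPM. Red cell markers were higher for 3 of 10 with 3 lower (1295 and 583 CPM), with a median of 0.06. Among the higher ones, Bst2, Nkg7 and Car1 would lie below 0 at equal summed levels. Kit, which the gate selects for, was derived at 38.8 CPM in the first numerator group and 58.6 CPM in the denominator group, and the progenitor gene Cd34 at 51.2 and 82.6 CPM. Ly6a, which encodes Sca-1, the marker the gate leaves out, was derived at 37.2 and 27.6 CPM, and the authors' deposited table lists it at 0.43 with an adjusted p of 0.402. A list of 10 genes of the gate and of myeloid progenitors had 5 higher, Mpo, Elane, Fcgr3, Fcgr2b and Cd48, and none lower in the first comparison, with a median of 1.21 that would lie below 0 at equal summed levels, as would Fcgr2b and Cd48. Kit, at -0.60 in the authors' deposited table, did not pass, with an adjusted p of 0.128. Kdr was low, at 2.24 and 0.938 CPM, and did not pass, with an adjusted p of 0.617 in the authors' deposited table.

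**Figure D5:**
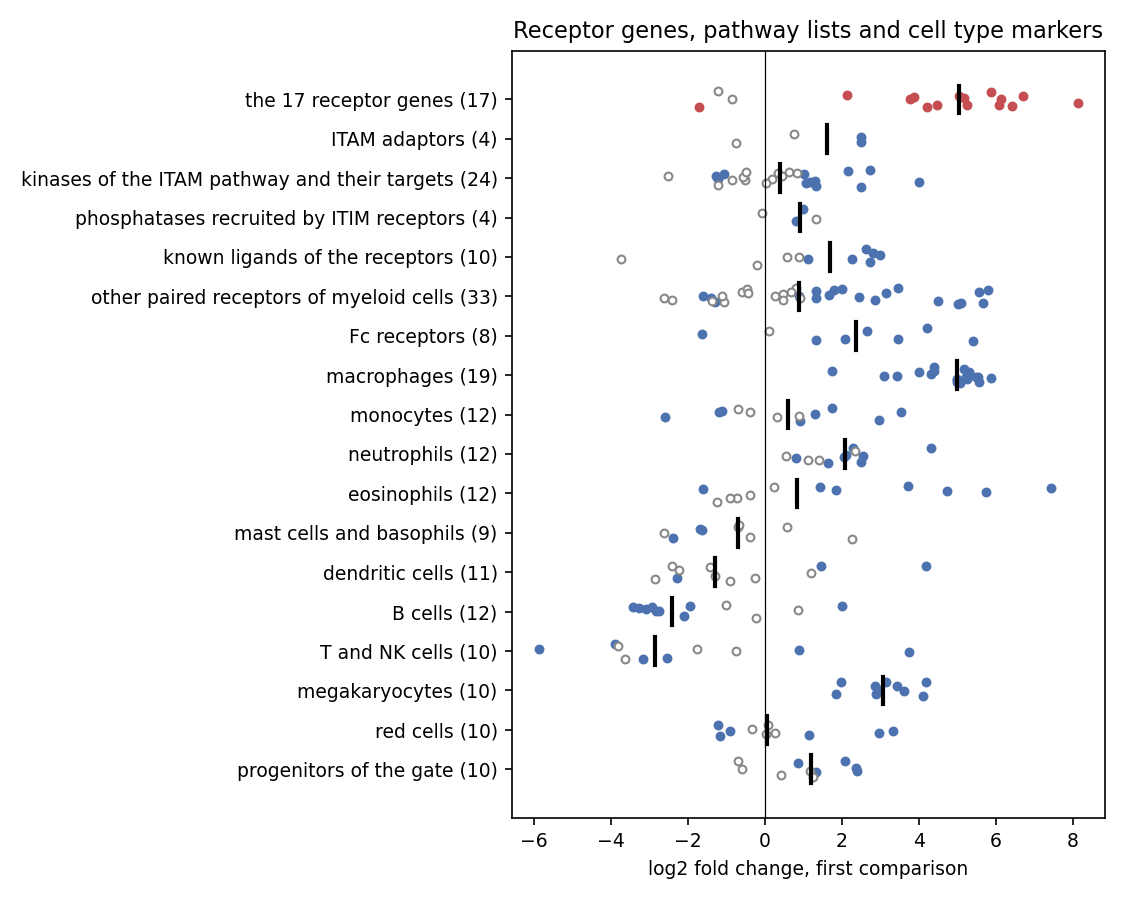
Log2 fold changes of the first comparison (x axis) for the 17 receptor genes, the pathway lists and the cell type markers (y axis, number of genes in brackets), filled points for an adjusted p under 0.05 and bars for medians. The receptor genes have a median of 5.05, macrophage markers 5.0, ITAM adaptors 1.62 and mast cell and basophil markers -0.70.

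The genes most like the 4 leading members in the pair of fold changes were sought by Euclidean distance from their median point, over the 2 comparisons and among rows with a mean of at least 1 CPM in both, predicted genes left out. The nearest were Ifit3, an interferon-induced gene, at a distance of 0.47 (log2), Bcl2a1d, a survival gene of the Bcl2 family, at 0.50, Pilrb2 at 0.66, and the lectin receptor genes Clec4b1 at 0.69 and Clec4a3 at 0.72. Ifit3 stood at 6.19 and -0.23 and Bcl2a1d at 6.29 and -0.93 in the authors' deposited table. Pira11 and Cd300lh themselves lie under the limit of 1 CPM, with second-comparison means of -0.59 and -3.20 log2 CPM. Other genes as low in that comparison could therefore not appear among the nearest. With only 2 values per gene, which share a group, likeness in this measure is a description.

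Fold changes depend on how the groups were scaled. Derived levels summed over all genes were larger in the first numerator group than in the denominator group by 1.49 (log2), and equal sums would lower every fold change of the first comparison by that amount. On that scale Cd300a, at 2.13 as deposited, would stand at 0.64, Pilrb1 at 4.65, Lilrb3 at 3.69 and Cd300lb at -3.20. Directions of all 17 members stayed as they were on this scale and when centred on the median of all rows.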

How the data were processed

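Libraries were prepared from 0.1 ug of RNA of sorted progenitors with an Illumina kit, per the labels' protocols. Bowtie 0.12.2 and the build mm8 are named, per the submitters' processing notes, without their roles. For counting, testing and annotation, the tools were not given in the sources used here.

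Per the file headers, the authors deposited 4 values for each gene and comparison, namely the log fold change, the mean level as log CPM, the p-value, and the false discovery rate of that p-value. The log values deposited by the authors are read as log2, since sides derived under base 2 match. The deposited p-values were used as they stand, and their Benjamini-Hochberg adjustment was recomputed and equalled the deposited rates to within rounding error. No test was refitted.

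Levels were derived as the mean minus log2(w × 2 to the power of the fold change + 1 - w), with the weights w of the numerator groups that matched the shared side best (0.48 and 0.59, step 0.01). The weight fit was tested on data simulated without noise by the same formula, which cannot show whether the deposited means follow it. A gene was called at an adjusted p under 0.05 over all 12791 rows. Transcripts were compared with Biopython 1.88 in Python 3.11.15 and plots drawn with matplotlib 3.10.9.

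Members, lists and tests were chosen with earlier results of these data known. All members may be named. From each pathway list the text names up to 6 genes past the threshold with the smallest p and the gene with the smallest p that did not pass, except for 1 gene that is not reported here. Also named are the 5 genes nearest to the leading members, Kdr, Kit and Ly6a. Plcg1, Vav3, Siglec5, Cd72, Siglecg, Fcer1a, the neighbours and the cell type markers beyond these were named after their values were seen. Coordinates of promoters are those of GRCm38.p6, not of mm8.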

Additional observations from a re-analysis of the deposited data

How the results depend on the processing

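With Benjamini-Yekutieli adjustment, or at a threshold of 0.01, 14 members were called in the first comparison in place of 15, Cd300lb being lost. Adjustment over rows with a mean of at least 1 CPM, an unadjusted p and an added minimum change of 1 (log2) left 15. Restricting to the 7 members that share little sequence left 5 calls and a median of 2.13 (both chosen after seeing the data). Of these 7, 4 were higher and 1 lower, against 14 and 1 of all 17 members. All of them but Lilra5 are CD300 members, the set that went both ways. The median of 5.05 became 5.18 when centred on all rows, 3.56 at equal sums and 5.16 with Gp49a and Gm11711. In the second comparison no setting tried called a member. Equal weights moved derived levels by at most 1.07 times. Values per library would be needed to leave out replicates, which was not run. No paired analysis was possible because the columns carry no replicate.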
